A study of Mus musculus with 8 samples.

Results

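The enzymes that break down stored and circulating fat, together with the proteins that switch them on or off, were followed as a set of 9 genes in the inguinal fat of mice, a white depot under the skin of the groin. The set was chosen by name as Pnpla2, Pnpla3, Lipe, Mgll, Abhd5, G0s2, Lpl, Angptl4 and Lipa, and all 9 were found among the 22869 genes of the deposited read counts. RNA-seq of polyadenylated RNA compared 4 libraries from wild-type mice with 4 libraries from Fabp4-Ebf2 mice. Both groups were of mixed background, about 6 weeks old, fed normal chow and kept at room temperature, and lymph nodes had been removed from the tissue. Fabp4-Ebf2 mice carry an Ebf2 transgene under Fabp4 regulatory sequence, which is active in adipocytes and also in some other cells such as macrophages. EBF2 is a transcription factor of brown and beige fat cells, and the comparison asked what its raised expression does to the transcripts of a white depot. The labels do not say whether the libraries of a group came from different animals, so the p-values speak only to the spread among these samples, which may be technical.

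Fat leaves a white adipocyte in steps. Adipose triglyceride lipase (Pnpla2) removes the first fatty acid from stored triglyceride, hormone-sensitive lipase (Lipe) acts on the resulting diglyceride, and monoglyceride lipase (Mgll) releases the last fatty acid and glycerol. ABHD5 activates adipose triglyceride lipase and G0S2 inhibits it. Lipoprotein lipase (Lpl) works outside the cell, on the wall of capillaries, where it frees fatty acids from circulating lipoproteins for uptake, and ANGPTL4 inactivates it. Lysosomal acid lipase (Lipa) digests lipid delivered to lysosomes, and Pnpla3 encodes a droplet protein related to adipose triglyceride lipase whose transcript follows feeding in mouse fat. In brown and beige fat, released fatty acids both fuel mitochondria and activate the uncoupling protein UCP1.

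Libraries held 16.9 to 24.7 M reads over all genes. The transgene was checked first: Ebf2 stood at 37.0, 14.9, 30.3 and 29.4 CPM in wild-type replicates 1 to 4 and at 499, 231, 575 and 447 CPM in Fabp4-Ebf2 replicates 1 to 4. CPM is the number of reads of a gene for each 1 M reads of its library, after TMM scaling. The 12 adipocyte markers examined, Adipoq, Pparg and Plin1 among them, were detected in all 8 libraries. Their summed level was 31204 to 40713 CPM in wild type, against 25144 to 29462 CPM in Fabp4-Ebf2, without overlap between the groups. Cfd, which encodes adipsin, held most of that difference, with means of 14009 and 6864 CPM, and it was picked out here after its values were seen (edgeR adjusted p = 0.0516). Of the 12 markers 1 fell, Retn, 0 rose and 11 did not pass, and their median log2 fold change was -0.23. On average 4 of the 12 were higher, Pparg (log2 fold change 0.29) and Plin1 (0.09) among them. At an unadjusted p under 0.05 edgeR had 5 lower and 1 higher, and DESeq2 called 4 lower and 0 higher. In bulk tissue, fewer cells of a type and less RNA per cell cannot be told apart. The 10 thermogenic adipocyte markers summed to 147 to 419 CPM in wild type, against 1260 to 4026 CPM in Fabp4-Ebf2, and 7 of them rose. Wild-type replicates 1 and 2 and Fabp4-Ebf2 replicate 2 stood apart from their groups in markers of other cells. Lymphocyte markers summed to 2552 CPM in wild-type replicate 2, where the 7 remaining libraries had 1349 to 1733 CPM, and macrophage markers were highest there too, at 4922 CPM. Skeletal muscle markers summed to 1521 CPM in wild-type replicate 1, where wild-type replicates 2 to 4 had 559 to 602 CPM. They summed to 509 CPM in Fabp4-Ebf2 replicate 2, where the remaining Fabp4-Ebf2 replicates had 96.9 to 179 CPM. The 11 adipocyte progenitor and fibroblast markers summed to 15158 CPM in wild-type replicate 1. Wild-type replicates 2 to 4 had 5821 to 7664 CPM, and the Fabp4-Ebf2 libraries 4578 to 7354 CPM. Of these 11 markers 0 passed edgeR's test, 4 were lower and 1 higher at an unadjusted p under 0.05, and DESeq2 called 1 lower and 0 higher.

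Of the 9 genes, 1 rose, 0 fell and 8 did not pass the test. The gene that rose was Angptl4, the inhibitor of lipoprotein lipase, with a level about 1.99 times that of wild type. A gene is said to rise or fall where its adjusted p was under 0.05 (edgeR, quasi-likelihood test, Benjamini-Hochberg adjustment over 15002 tested genes). By that rule 3.42% of all tested genes changed, 2.80% being higher in Fabp4-Ebf2 and 0.620% lower. All 9 genes passed the filter on low counts, the least abundant of them, Lipa, with 1668 to 3414 reads per library. The median log2 fold change of the 9 was 0.12, beside -0.01 over all tested genes. Their biological coefficients of variation, the spread between libraries beyond counting error, ran from 14.9% for Lipa to 34.8% for G0s2. At an unadjusted p under 0.05, edgeR also had 1 of the 9 higher and 0 lower, beside 17.5% of all tested genes in either direction. DESeq2 called 1 of the 9 higher and 0 lower, beside 5.65% of all tested genes higher and 385 of 15002 lower. These values over all tested genes also stand beside the counts of the other gene lists in this report.

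**Figure D1:**
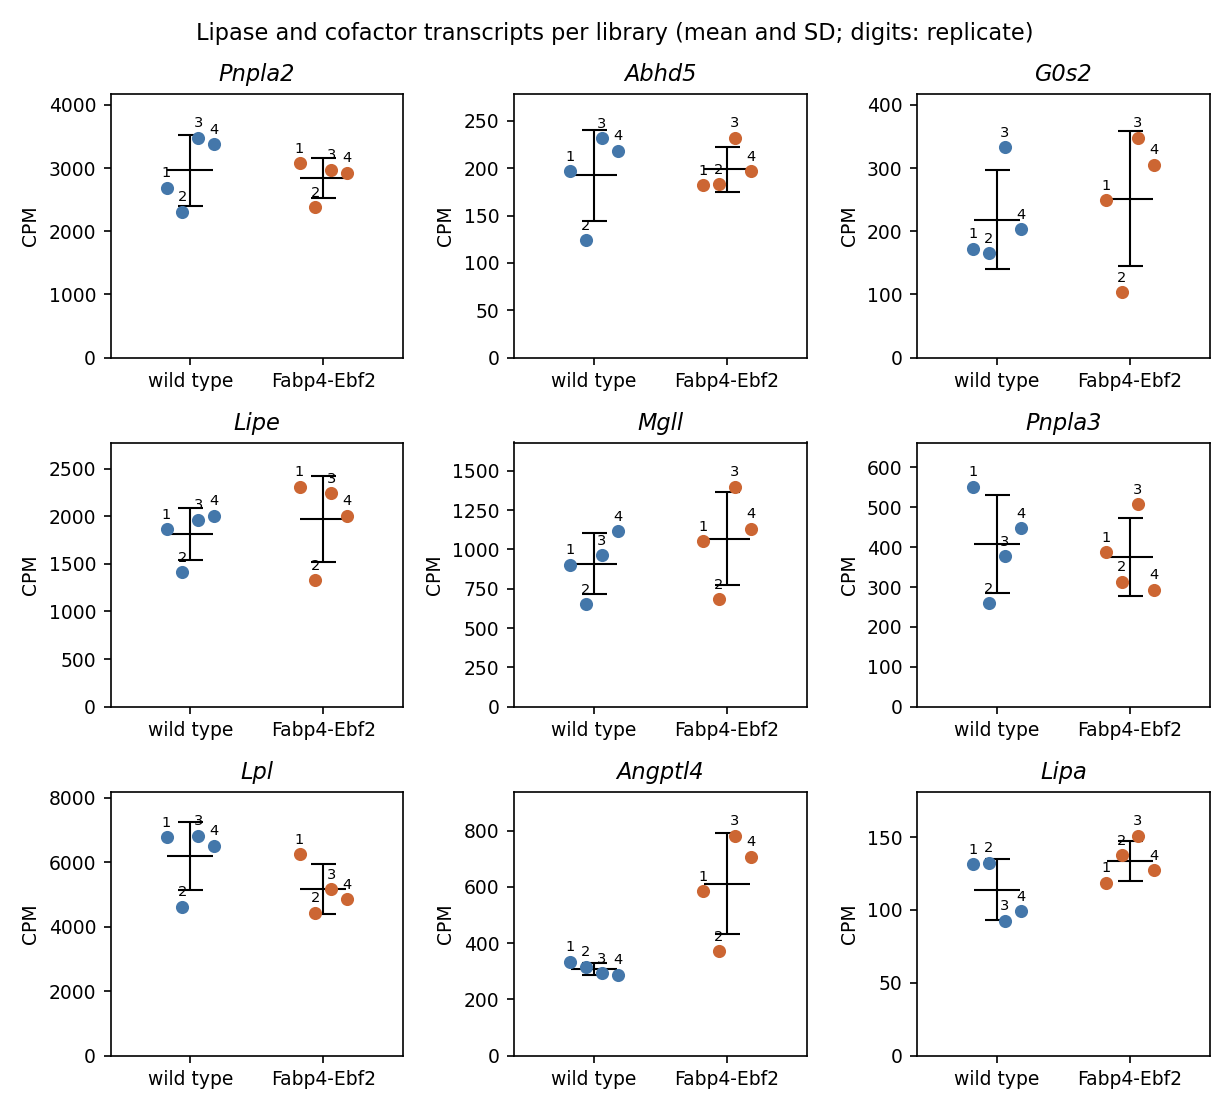
Level of each lipase or cofactor transcript (CPM, linear axis from 0) in the 4 wild-type (blue) and 4 Fabp4-Ebf2 (orange) libraries. Digits give the replicate and black bars the mean and SD. The Angptl4 points of the 2 groups do not overlap, with 288 to 334 CPM against 372 to 782 CPM, while those of the other 8 genes do.

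Per transcript length, which is the scale on which different genes can be compared, Lpl and Pnpla2 led the set. In wild type Lpl had 1503 ± 256 CPM per kb (SD, n = 4) and Pnpla2 had 1449 ± 274 CPM per kb, a pair whose libraries overlapped. Lipe followed at 501 ± 76.1 CPM per kb, below the lowest library of either. Pnpla3 at 312 ± 93.6, G0s2 at 251 ± 89.5 and Mgll at 228 ± 48.5 CPM per kb overlapped one another. Angptl4 had 92.9 ± 6.52, Abhd5 61.0 ± 15.2 and Lipa 38.4 ± 7.04 CPM per kb. Angptl4 lay above Abhd5 without overlap, and Abhd5 overlapped with Lipa at its lowest library, wild-type replicate 2. In Fabp4-Ebf2 fat the means of Lpl and Pnpla2 changed places, at 1258 ± 188 and 1386 ± 154 CPM per kb, again overlapping. Angptl4 moved from well below Mgll to 185 ± 54.3 CPM per kb, where its highest libraries overlapped with Mgll at 267 ± 74.2 CPM per kb. As read counts, Lpl had rank 6 to 8 among all genes in every library, and the 9 genes together took 1.02 to 1.47% of the reads.

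**Figure D2:**
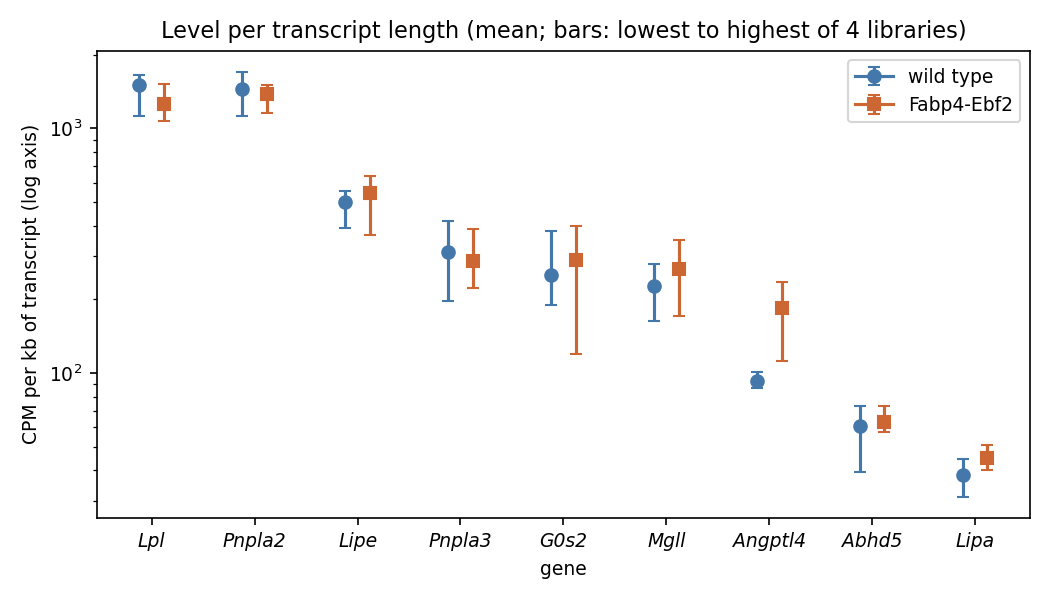
Level per kb of transcript (CPM per kb, log axis) of each gene in wild type (blue circles) and Fabp4-Ebf2 (orange squares). Points are means and bars run from the lowest to the highest of 4 libraries. The span from Lpl to Lipa in wild type is from 1503 to 38.4 CPM per kb.

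The triglyceride lipase Pnpla2 did not differ detectably between the genotypes. Wild-type replicates 1 to 4 had 2689, 2312, 3484 and 3382 CPM, and Fabp4-Ebf2 replicates 1 to 4 had 3082, 2377, 2973 and 2925 CPM. The lowest and the highest value were both wild type, and every Fabp4-Ebf2 library lay between them. Its log2 fold change was -0.06 (SE 0.18, edgeR adjusted p = 0.880), with a 95% interval of the fold from 0.720 to 1.27. The transcripts of Pnpla2 share nearly all reads, and its coding transcript had 95.7 to 96.1% as many reads as the one the authors marked and that is used here.

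Abhd5, the coactivator of that lipase, had 197, 124, 232 and 218 CPM in wild type, against 182, 183, 232 and 197 CPM in Fabp4-Ebf2. Wild-type replicate 2 was alone at the bottom, and the other libraries of both groups shared one range. The fold was 1.03 with a 95% interval from 0.776 to 1.37 (log2 fold change 0.04, SE 0.18, edgeR adjusted p = 0.918).

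G0s2, the inhibitor of the same lipase, varied most of the 9 genes. It had 173, 166, 333 and 203 CPM in wild type, against 250, 104, 348 and 305 CPM in Fabp4-Ebf2. The lowest and the highest library were both Fabp4-Ebf2, replicates 2 and 3, which differed 3.35-fold. The fold between genotypes was 1.15, and its interval, 0.666 to 1.99, was the widest of the set (log2 fold change 0.20, SE 0.35, edgeR adjusted p = 0.788). The interval reaches both no change and a fold as large as that of Angptl4, so neither was distinguishable at this spread.

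Among the enzymes of the later steps, Lipe had 1862, 1410, 1966 and 2008 CPM in wild type, against 2313, 1329, 2242 and 2005 CPM in Fabp4-Ebf2. Replicate 2 was at the bottom of its group in both genotypes. The log2 fold change was 0.12 (SE 0.21, 95% interval -0.34 to 0.58, edgeR adjusted p = 0.780). Lipe shares exon sequence with 4732471J01Rik on the opposite strand, and reads of the pair may not be separated.

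Mgll had 901, 653, 964 and 1118 CPM in wild type, against 1053, 682, 1400 and 1132 CPM in Fabp4-Ebf2. Its replicates 2 were likewise the lowest of both groups, and Fabp4-Ebf2 replicate 3 was the highest of all. The fold was 1.17 with a 95% interval from 0.816 to 1.69 (log2 fold change 0.23, SE 0.23, edgeR adjusted p = 0.631). A Mgll transcript with fewer reads had 5.92 to 9.19% as many reads as the transcript used in wild type and 8.56 to 9.66% in Fabp4-Ebf2, ranges that overlap.

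Pnpla3 had 552, 259, 377 and 447 CPM in wild type, against 388, 314, 507 and 293 CPM in Fabp4-Ebf2. Wild-type replicates differed by up to 2.13-fold, and the Fabp4-Ebf2 values lay within the wild-type range. The fold was 0.918 with a 95% interval from 0.628 to 1.34 (log2 fold change -0.12, SE 0.24, edgeR adjusted p = 0.815).

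The lysosomal lipase Lipa had 131, 132, 92.7 and 99.2 CPM in wild type, against 119, 138, 151 and 127 CPM in Fabp4-Ebf2. Wild-type replicates 3 and 4 were below all the others, and replicates 1 and 2 lay among the Fabp4-Ebf2 libraries. The fold was 1.17, with an interval from 0.948 to 1.45 (log2 fold change 0.23, SE 0.14, edgeR adjusted p = 0.417). Macrophages are rich in this enzyme, and the 18 macrophage markers examined summed highest in the 2 libraries numbered replicate 2, at 4922 CPM in wild type, against 4246 CPM in Fabp4-Ebf2, and at 2422 to 3775 CPM in the other 6. The macrophage sum was lowest, at 2422 CPM, in Fabp4-Ebf2 replicate 3, the library with the highest Lipa (151 CPM). Of these markers 0 passed edgeR's test, 1 was higher and 1 lower at an unadjusted p under 0.05, and DESeq2 called 0 higher and 1 lower. All 18 were detected in all 8 libraries, and their part in the level of Lipa was not tested.

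Lpl, the most abundant of the 9, had 6780.4, 4620.0, 6828 and 6511 CPM in wild type, against 6243, 4431, 5164 and 4862 CPM in Fabp4-Ebf2. Wild-type replicate 2 fell among the Fabp4-Ebf2 libraries, whereas wild-type replicates 1, 3 and 4 were above all of these. The fold was 0.837 with a 95% interval from 0.609 to 1.15 (log2 fold change -0.26, SE 0.20, edgeR adjusted p = 0.542). Muscle fibres also express Lpl, and the 20 skeletal muscle markers summed to 1521, 590, 559 and 602 CPM in wild-type replicates 1 to 4. They summed to 179, 509, 177 and 96.9 CPM in Fabp4-Ebf2 replicates 1 to 4, and all of them were detected in all 8 libraries. Of the 19 tested, 2 fell and 0 rose in edgeR's test, 17 were lower and 0 higher at an unadjusted p under 0.05, and DESeq2 called 6 lower and 0 higher, and their part in the level of Lpl was not tested.

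Angptl4 was different. It had 334, 316, 292 and 288 CPM in wild-type replicates 1 to 4 and 583, 372, 782 and 708 CPM in Fabp4-Ebf2 replicates 1 to 4. Wild-type libraries lay close together and every Fabp4-Ebf2 library was above them, replicate 2 by the smallest margin. Groups without overlap in this direction were found for 7.35% of all tested genes. The mean went from 307 ± 21.6 to 611 ± 180 CPM (SD, n = 4 each), a fold of 1.99 with a 95% interval from 1.44 to 2.74 (log2 fold change 0.99, SE 0.21, edgeR adjusted p = 0.0336). Within the Fabp4-Ebf2 group, replicate 2 was lowest and replicate 3 highest for Angptl4, for Ebf2 (231 and 575 CPM) and for the summed thermogenic markers (1260 and 4026 CPM). The same libraries were lowest and highest for Mgll and G0s2, which did not pass. Replicate 4 was above replicate 1 for Angptl4 (708 and 583 CPM). It was below replicate 1 for Ebf2 (447 and 499 CPM) and for the summed thermogenic markers (1786 and 3013 CPM). All 10 thermogenic markers were detected in all 8 libraries, and their part in the rise of Angptl4 was not tested.

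The call of Angptl4 was close to the threshold. The log2 fold change lay between 0.85 and 1.16 when any single library was left out, and the call held only without Fabp4-Ebf2 replicate 2 (edgeR adjusted p = 0.00262), while leaving out any of the other 7 libraries gave an edgeR adjusted p of 0.0591 to 0.107. In the authors' deposited table the log2 fold change of Angptl4 was 0.97 with an FDR of 3.00e-06, and those of the other 8 genes, for the transcripts used here, lay between -0.23 and 0.25 with an FDR of at least 0.733. By the authors' values 4.43% of the genes tested here were higher at an FDR under 0.05, and 6.14% differed in either direction. The Mgll transcript with fewer reads had 0.40 and an FDR of 0.644 in the authors' deposited table.

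**Figure D3:**
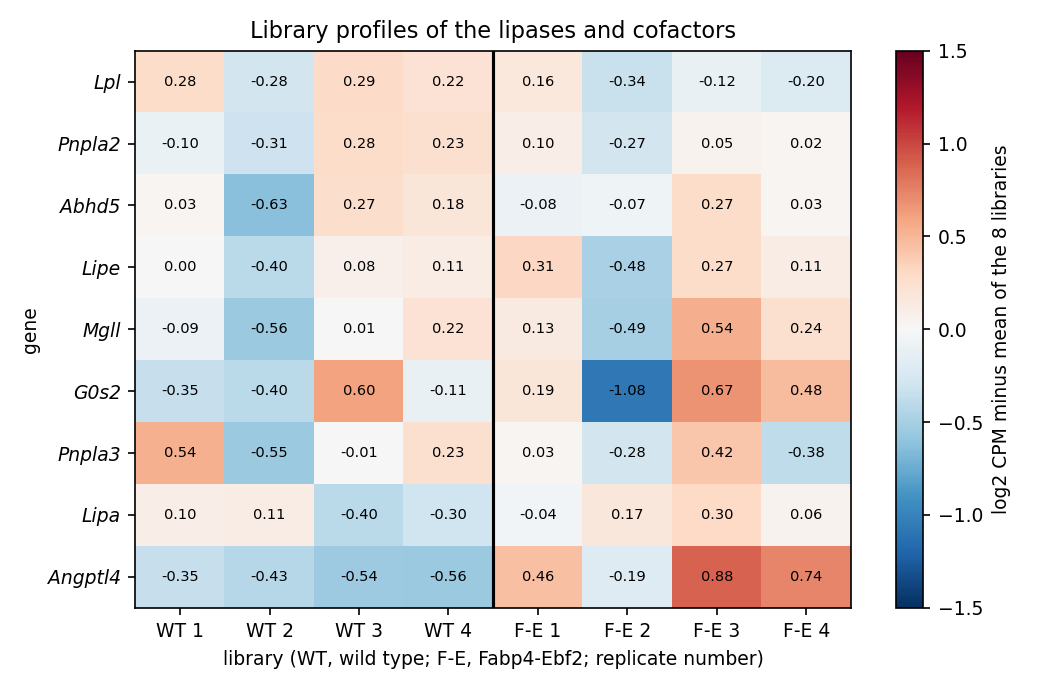
Log2 CPM of each gene in each library minus the mean of the 8 libraries (colour and digits). WT is wild type and F-E is Fabp4-Ebf2, with the replicate number. Replicate 2 of both genotypes is below the mean for Lpl, Pnpla2, Abhd5, Lipe, Mgll, G0s2 and Pnpla3, and Angptl4 is negative in all wild-type libraries and in Fabp4-Ebf2 replicate 2.

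Several of the lipases were low in the same libraries, which cut across the genotypes. Wild-type replicate 2 was the lowest of its group for 7 of the 9 genes, the exceptions being Angptl4 and Lipa. It was also the library with the highest lymphocyte and macrophage marker sums and, within wild type, the lowest adipocyte marker sum. The adipocyte sum was 31204 CPM there, against 34774 to 40713 CPM in wild-type replicates 1, 3 and 4. The part of these marker sums in these levels was not tested. In the transgenic group, replicate 2 held the lowest value for 6, namely Pnpla2, Lipe, Mgll, G0s2, Lpl and Angptl4. Replicate 2 also had the lowest adipocyte marker sum of that group, 25144 CPM against 26160 to 29462 CPM, and its part was not tested. Likeness between profiles was measured as the root mean square difference of log2 CPM, centred on each gene's mean over the 8 libraries, and is a description without a test. The closest members were Lipe and Mgll (0.15), Pnpla2 and Lipe (0.16), Pnpla2 and Lpl (0.17) and Pnpla2 and Abhd5 (0.18). Farthest apart were Lpl and Angptl4 (0.68). Among all tested genes of at least 10 CPM, the profile nearest to Lipe was that of Plin1 (0.07), the droplet coat protein that holds ABHD5 until lipolysis is stimulated, followed by Akap12 and Mtus1 (0.08 each). Nearest to Angptl4 were Gbp3 (0.10), Ddit3 (0.11) and Herc6 (0.13), with log2 fold changes of 1.09, 0.96 and 0.96. The distance covers both genotypes, so a fold change close to that of Angptl4 follows from how these genes were picked. Extl3 was nearest to Lpl (0.06), Mocs1 to Pnpla2 (0.06), 2610203C22Rik to Abhd5 (0.07), 1110021L09Rik to Pnpla3 (0.14), Pctp to Lipa (0.06) and Palmd to G0s2 (0.18).

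Ratios of reads between members were compared within each library, where depth and scaling cancel, to ask whether an enzyme shifted against its regulator. Of 10 ratios tested, 1 separated the genotypes without overlap, that of Lpl to its inhibitor Angptl4. There were 20.3, 14.6, 23.4 and 22.6 reads of Lpl for each read of Angptl4 in wild type, and 10.7, 11.9, 6.60 and 6.87 in Fabp4-Ebf2. On the log2 scale the ratio was 3.12 ± 0.44 in Fabp4-Ebf2 against 4.31 ± 0.31 in wild type (SD, n = 4 each, difference -1.19). A two-sided exact permutation test gave p = 0.0286, the smallest that 70 arrangements allow, and 0.286 after adjustment over the 10 ratios. A single ratio cannot pass that adjustment in a design of this size.

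The balance of adipose triglyceride lipase with its regulators showed no shift that was detectable at this spread. Reads of Pnpla2 per read of G0s2 were 15.6, 13.9, 10.5 and 16.7 in wild type and 12.4, 22.9, 8.53 and 9.58 in Fabp4-Ebf2 (log2 difference -0.18, two-sided exact permutation p = 0.629). The extremes were both Fabp4-Ebf2, replicate 2 having the most Pnpla2 for its G0s2. Abhd5 per read of G0s2 ran from 0.696 to 1.14 in wild type and from 0.645 to 1.76 in Fabp4-Ebf2 (log2 difference -0.05). Pnpla2 per read of Lipe ran from 1.44 to 1.77 in wild type and from 1.33 to 1.79 in Fabp4-Ebf2. The log2 ratio differed by -0.13 for Pnpla2 to Abhd5, by -0.11 for Lipe to Mgll, by 0.05 for Pnpla2 to Pnpla3 and by -0.29 for Pnpla2 to Lipa, all overlapping. The log2 ratio of Lpl to Pnpla2 differed by -0.20 and that of Lpl to Lipa by -0.49 (exact permutation p = 0.143 each). With adjustment over the 10 ratios, 0 passed, and the 9 others than Lpl to Angptl4 had exact permutation p of 0.143 or more.

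**Figure D4:**
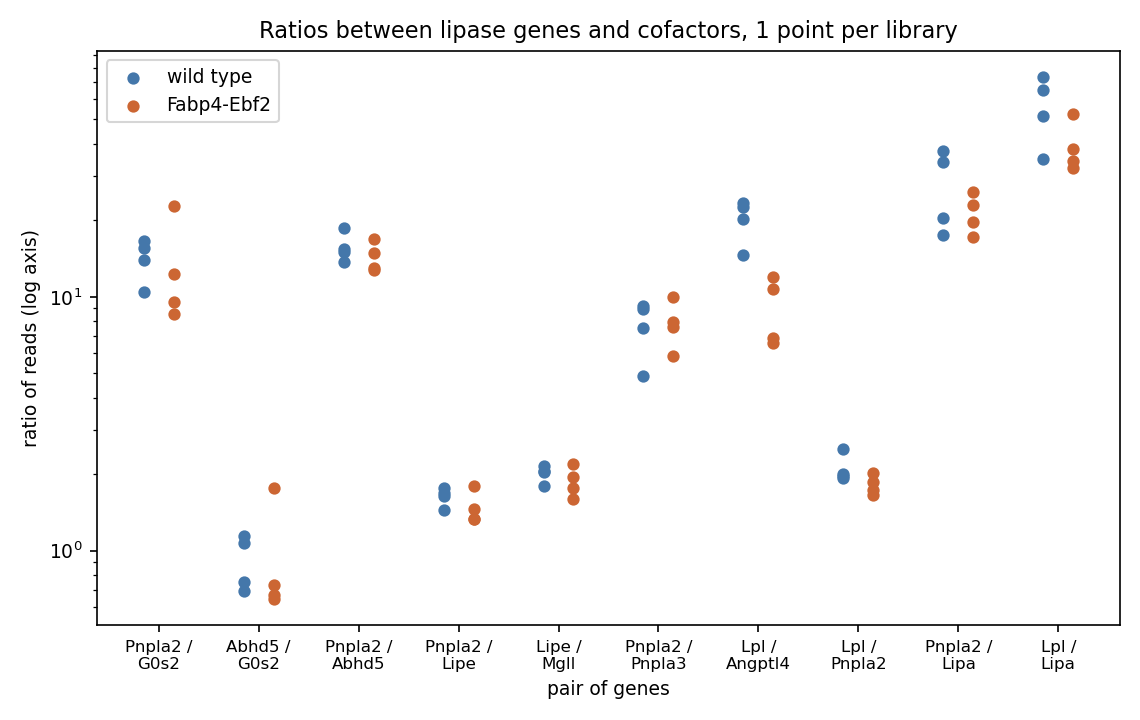
Ratio of reads (log axis) between pairs of lipase or cofactor genes, 1 point per library, wild type in blue and Fabp4-Ebf2 in orange. For Lpl over Angptl4 the wild-type points lie from 14.6 to 23.4 and the Fabp4-Ebf2 points from 6.60 to 11.9, and the points overlap for the other pairs.

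The genes examined around these enzymes included some that start the signal for lipolysis, some that end it and some that act on what lipolysis frees. A few of them rose, and most did not pass the test. Noradrenaline acts through β-adrenergic receptors, cyclic AMP and protein kinase A. Of 34 tested genes of the lipolysis signalling list, 5 rose, 0 fell and 29 did not pass, with a median log2 fold change of 0.10. Over all tested genes, 2.80% rose and 0.620% fell. Adrb1, the β1-adrenergic receptor, rose from 4.38 ± 1.00 to 10.1 ± 0.60 CPM, 2.32-fold (edgeR adjusted p = 0.0111). Adrb3, the main β-adrenergic receptor of mouse adipocytes, averaged 513 ± 111 CPM against 496 ± 52.0 CPM with the transgene and did not pass (fold 0.967, 95% interval 0.750 to 1.25). Akap1, which anchors protein kinase A at mitochondria, rose from 105 ± 19.3 to 263 ± 67.1 CPM, 2.51-fold (edgeR adjusted p = 0.0109). Gyk, the symbol in the file for glycerol kinase, which lets a cell reuse the glycerol that lipolysis frees, rose from 13.4 to 83.3 CPM, 6.21-fold (edgeR adjusted p = 0.00688).

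The risers included an enzyme that makes cyclic AMP and an enzyme that breaks it down. The adenylyl cyclase gene Adcy3 rose from 59.3 ± 7.98 to 102 ± 20.5 CPM, 1.73-fold (edgeR adjusted p = 0.0264), and the phosphodiesterase gene Pde4d rose from 24.7 ± 3.33 to 67.2 ± 29.5 CPM, 2.72-fold (edgeR adjusted p = 0.0237). Adcy3 shares exon sequence with Cenpo on the opposite strand, and reads of the pair may not be separated. Another cyclase gene, Adcy5, named after its values were seen, averaged 292 ± 103 CPM against 172 ± 32.0 CPM with the transgene and did not pass (log2 fold change -0.76, edgeR adjusted p = 0.138). Over the signalling list 9 genes were higher and 1 lower at an unadjusted p under 0.05, and DESeq2 called 8 higher and 1 lower. Pde3b, the phosphodiesterase through which insulin restrains lipolysis, had a log2 fold change of 0.22 (SE 0.25), and its partner Abhd15 one of 0.07 (SE 0.25), neither past the test. Abhd15 shares exon sequence with Taok1 and Trp53i13 on the opposite strand, and reads of these genes may not be separated. Gyk, Akap1 and Adrb1 passed without each single library in turn. The call of Pde4d was lost on leaving out any 1 of wild-type replicates 2, 3 and 4 and Fabp4-Ebf2 replicate 3 (highest edgeR adjusted p 0.0792). That of Adcy3 was lost on leaving out any library other than replicate 2 of either genotype (highest edgeR adjusted p 0.0857). The list had 3 genes higher without any 1 of wild-type replicates 3 and 4 and Fabp4-Ebf2 replicate 3. On these omissions 0.583, 0.649 and 1.66% of all tested genes were higher, in the same order.

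In the droplet coat, too, some genes rose and others did not pass the test. Of 18 tested genes of the droplet list 4 rose, 0 fell and 14 did not pass, with a median log2 fold change of 0.14. The share of all tested genes that rose was 2.80%. Plin5, a coat protein of oxidative tissues that binds both adipose triglyceride lipase and ABHD5, rose 5.02-fold, from 13.4 to 30.5 CPM across wild-type libraries to 57.6 to 139 CPM across Fabp4-Ebf2 libraries (edgeR adjusted p = 0.00805). Plin2, the general droplet coat protein, rose from 345 ± 55.6 to 784 ± 170 CPM, 2.28-fold (edgeR adjusted p = 0.0126). Cidea rose 6.32-fold and Cideb 2.49-fold, the latter at no more than 3.52 CPM and beside Nop9 on the opposite strand. Plin1, the gatekeeper of the large droplet, averaged 1284 ± 255 CPM against 1368 ± 340 CPM with the transgene and did not pass (fold 1.07, 95% interval 0.750 to 1.51). Cidec, of the same family as Cidea and Cideb and named after its values were seen, averaged 2753 ± 547 CPM against 1791 ± 314 CPM and did not pass (log2 fold change -0.62, edgeR adjusted p = 0.132). Over the droplet list 6 genes were higher and 1 lower at an unadjusted p under 0.05, and DESeq2 called 4 higher and 1 lower. The lipase inhibitor gene Hilpda, listed as 2310016C08Rik, averaged 9.95 CPM against 9.97 CPM with the transgene and did not pass (95% interval of the log2 fold change -0.37 to 0.37). Plin5 and Cidea passed without each single library, and the call of Plin2 was lost on leaving out wild-type replicate 3 or 4 (highest edgeR adjusted p 0.0553). On these omissions 2 genes of the list were higher, beside 0.583 and 0.649% of all tested genes. Cideb passed only without Fabp4-Ebf2 replicate 2 among the single omissions and did not pass in limma-voom (adjusted p = 0.0565).

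**Figure D5:**
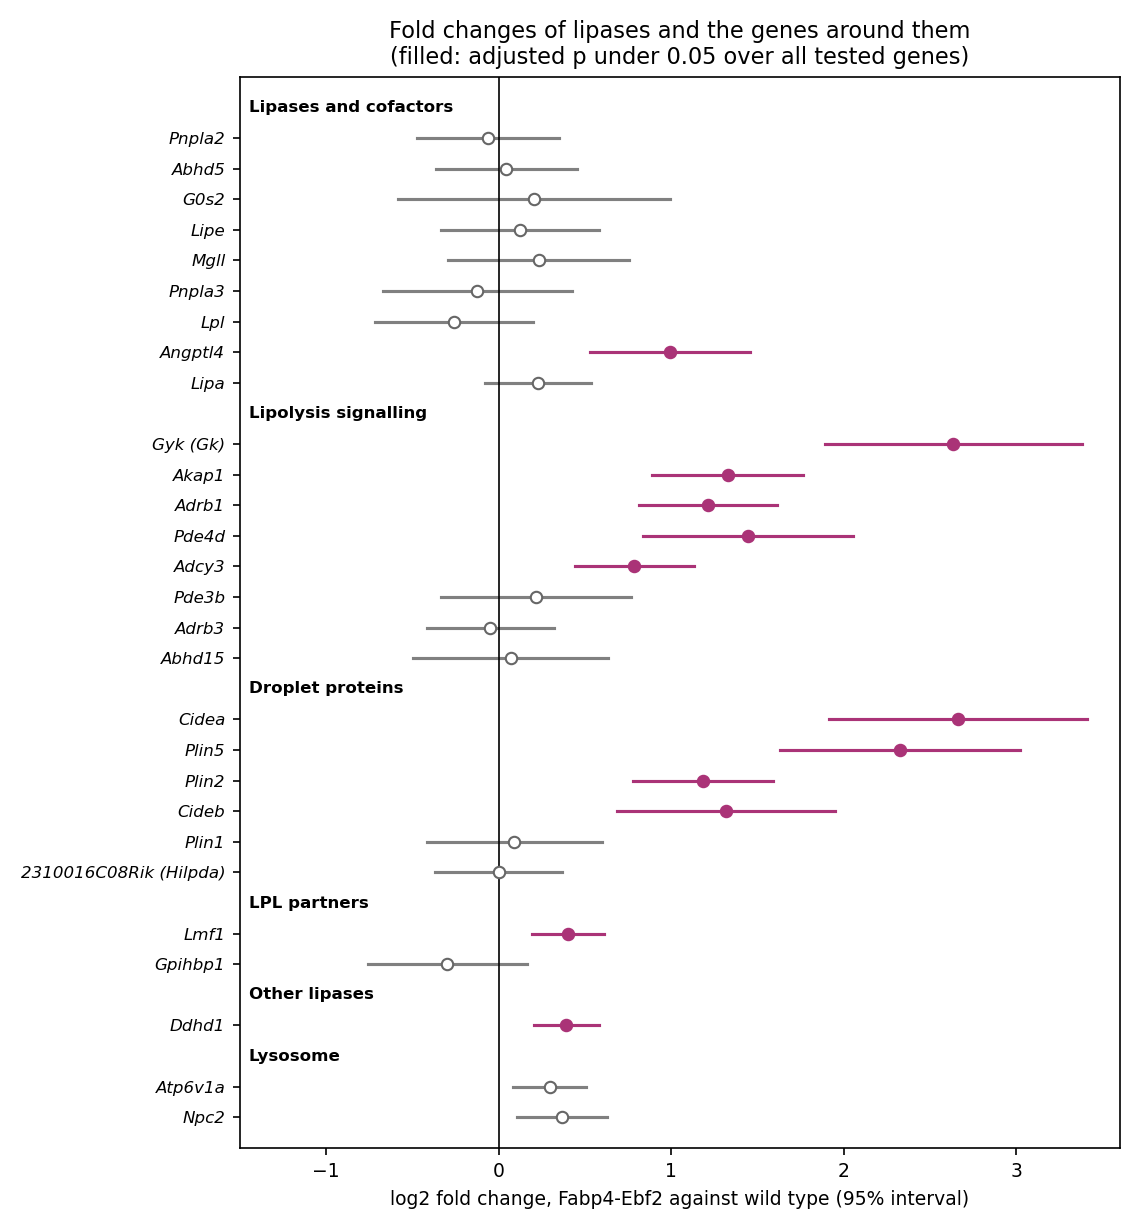
Log2 fold change, Fabp4-Ebf2 against wild type, of the 9 lipases and cofactors and of named genes around them, with 95% intervals that are not adjusted for the number of genes. Filled points passed at an adjusted p under 0.05 over all tested genes. Angptl4 at 0.99 is the filled point among the 9, and Gyk at 2.64, Cidea at 2.66 and Plin5 at 2.33 lie farthest to the right.

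Of the proteins that work with lipoprotein lipase, 1 of 21 tested rose, 0 fell and 20 did not pass, with a median log2 fold change of 0.04. That count stands beside 2.80% of all tested genes that rose. The riser was Lmf1, the endoplasmic reticulum protein that lipoprotein lipase needs to fold, from 28.7 ± 2.31 to 37.9 ± 2.94 CPM (fold 1.32, edgeR adjusted p = 0.0484). Its call was kept in 1 of 8 single omissions, that of Fabp4-Ebf2 replicate 2, with an edgeR adjusted p from 0.0438 to 0.139 over the 8. It was also lost with RLE factors, upper quartile factors, library totals alone, no filter on low counts or limma-voom (adjusted p 0.0508 to 0.0735), and without both wild-type replicate 1 and Fabp4-Ebf2 replicate 2 (0.0702). At an unadjusted p under 0.05 the list had 5 genes higher and 0 lower, and DESeq2 called 3 higher and 0 lower. The list had 0 genes higher on leaving out any 1 of wild-type replicates 3 and 4 and Fabp4-Ebf2 replicates 1, 3 and 4, and 3 without Fabp4-Ebf2 replicate 2. Of all tested genes, 0.583 to 1.66% were higher on those 5 omissions and 4.39% without Fabp4-Ebf2 replicate 2. Gpihbp1, which carries lipoprotein lipase to the capillary lumen, averaged 79.4 ± 19.1 CPM against 64.7 ± 14.3 CPM with the transgene and did not pass (fold 0.814, 95% interval 0.592 to 1.12). It is made by endothelial cells, whose 14 markers summed to 1314 to 1602 CPM in wild type, against 1153 to 1362 CPM in Fabp4-Ebf2, all of them detected in all 8 libraries. Of these markers 0 passed edgeR's test, 5 were lower at an unadjusted p under 0.05 and DESeq2 called 2 lower, and their part in the level of Gpihbp1 was not tested.

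Among 20 tested genes of other lipases and acylglycerol hydrolases 1 rose, 0 fell and 19 did not pass, with a median log2 fold change of 0.07. Here too 2.80% of all tested genes rose. Ddhd1, a phospholipase that acts on phosphatidic acid, rose from 59.7 ± 2.73 to 78.2 ± 7.13 CPM (fold 1.31, edgeR adjusted p = 0.0381), and kept its call in 2 of 8 single omissions, those of wild-type replicate 2 and Fabp4-Ebf2 replicate 1. Its call was also lost with upper quartile factors (edgeR adjusted p = 0.0716), with library totals alone (0.0990) and without both wild-type replicate 1 and Fabp4-Ebf2 replicate 2 (0.107). At an unadjusted p under 0.05 this list had 5 genes higher and 3 lower, beside 17.5% of all tested genes in either direction. DESeq2 called 4 higher and 2 lower, and edgeR called 2 lower without wild-type replicate 2, beside 181 of 15083 tested genes lower on that omission. Ces1f, a carboxylesterase gene named after its values were seen, averaged 228 ± 45.8 CPM against 144 ± 27.5 CPM with the transgene, without overlap, and did not pass (log2 fold change -0.67, edgeR adjusted p = 0.0825). Groups without overlap in this direction were found for 4.07% of all tested genes. Of 29 tested lysosome genes, the setting in which Lipa works, 0 rose and 0 fell in edgeR, 3 were higher and 1 lower at an unadjusted p under 0.05, and DESeq2 called 1 higher and 0 lower. Those with the smallest p were Atp6v1a, a subunit of the proton pump (log2 fold change 0.29, SE 0.09, edgeR adjusted p = 0.132), and Npc2, which carries cholesterol within the lysosome (0.37, SE 0.12, edgeR adjusted p = 0.134).

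The DNA just before the genes' start sites was read for the letters that EBF proteins and PPAR-RXR pairs are known to bind, since EBF2 was the factor raised here and Angptl4 and Plin2 are known PPAR targets. RefSeq promoters of the build GRCm38.p6 were used for 7 genes, all but Lpl and Angptl4, in 9 windows, and the 250 bases before each start were searched on both strands. The EBF palindrome, TCCC followed after 2 bases by GGGA, was in 0 of the 9 windows and in 0.779% of 32851 windows of all genes. Its core CCCNNGGG, which lies within the palindrome, was in the windows of 2 genes, Mgll and Lipa, and in 11.8% of all windows. The direct repeat of AGGTCA with 1 base between the copies was in 0 of the 9 and in 0.0335% of all windows, and the single site AGGTCA, which lies within it, was before 1 gene, Abhd5, and in 14.0% of all windows. The matches are printed with the matching letters in capitals, 5′ to 3′ on the strand of the gene.
Mgll, chr6:88724341-88724370, plus strand: gccccgctcctCCCCGGGGgccgggcacac
Lipa, chr19:34527551-34527580, minus strand: tgagtccgcttCCCCAGGGctaggccgatg
Abhd5, chr9:122351536-122351563, plus strand: cggcgtcgggcTGACCTtccttaccagt
In Mgll a second match overlaps the printed one by a shift of 1 base, and in Abhd5 the match reads on the other strand. A match in letters is a description and was not tested as a binding site.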

How the data were processed

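RNA-seq of polyadenylated RNA gave 8 libraries, 4 a group. Raw read counts per RefSeq transcript and library were deposited by the authors, who used the build mm9 (per the submitters' processing notes). How reads were aligned and counted, and whether strand was used, is not given in the sources used here. The authors' deposited table also holds edgeR log2 fold changes with FDR p-values, and 8 further per-sample columns of log2 values that were not used here. For each of 22869 genes the transcript marked by the authors was taken, or the one with most reads for 902 genes without a mark. Counts (16.9 to 24.7 M reads per library, 3 reads being 0.116 to 0.178 CPM) were filtered with filterByExpr, scaled by TMM and tested with the quasi-likelihood test of edgeR 4.0.16 in R 4.3.3, over 15002 genes with Benjamini-Hochberg adjustment. The test was also run on simulated counts whose means, library sizes and dispersions were taken from the fit to these data. Limma 3.58.1 (voom) and DESeq2 1.42.0 were alternatives, beside other scalings, filters, a replicate block and omitted libraries. Ratios of reads (pseudocount 0.5) were tested by exact permutation. Lengths and overlaps came from GENCODE annotation. Since the builds differ, lengths were matched by the RefSeq accession of the transcript and overlaps by gene name. Replicates differed by more than counting error (chi-square per degree of freedom 19.3 to 75.4). The 9 genes and all lists were chosen with earlier results of these data known. Named genes were the 9 members, Ebf2, at most 6 genes past the threshold per pathway list or otherwise the 2 of smallest p, Gpihbp1, Lmf1, Plin1, Plin5, Hilpda, Abhd15, Adrb3 and Pde3b whatever their result, and the up to 3 nearest profiles per member.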

Additional observations from a re-analysis of the deposited data

Results flagged for a closer look

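In 78 groups of 4 libraries, 6 had a single library apart from the other 3 by Dixon's criterion at the 95% level, which chance gives in about 1 in 20 groups. Wild-type replicate 2 was low for Lpl, at 4620.0 CPM against 6511 to 6828 CPM, for the droplet coat gene Plin1, at 904 CPM against 1380.3 to 1452 CPM, and for Abhd15, at 40.1 CPM against 71.7 to 74.1 CPM. Wild-type replicate 3 was low for Lmf1, at 25.2 CPM against 29.3 to 30.1 CPM. Fabp4-Ebf2 replicate 2 had 1.76 reads of Abhd5 per read of G0s2, against 0.645 to 0.729 in the other Fabp4-Ebf2 libraries. Wild-type replicate 1 had 2.52 reads of Lpl per read of Pnpla2, against 1.93 to 2.00 in the other wild-type libraries.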

How the results depend on the processing

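The number of genes higher in Fabp4-Ebf2, 420, was 848 with DESeq2, 727 with edgeR's exact test and 88 to 662 without single libraries. The number lower, 93, was 385, 276 and 22 to 256 in the same order, and 164 without both wild-type replicate 1 and Fabp4-Ebf2 replicate 2. Of the 9 members, 1 was higher, and 0 to 1 without single libraries. Same-numbered libraries correlated at -0.13, 0.36, 0.16 and 0.09 in their deviations from group means, and 1 of the 4 numbers, number 2, matched itself best, so a pairing was neither established nor excluded by these values. With the replicate block 475 genes (3.17%) and 0 members were higher, Angptl4 having an edgeR adjusted p of 0.0550, and the calls of Lmf1 (0.0814), Cideb (0.0651) and Ddhd1 (0.0531) were lost too. Of 180 member values under alternatives, 165 kept direction and call, 8 of Angptl4 missed the threshold and 7 changed sign. Single omissions gave log2 fold changes of -0.17 to 0.018 for Pnpla2, -0.30 to 0.055 for Pnpla3 and -0.12 to 0.14 for Abhd5, and Pnpla3 had 0.12 without both libraries. Of 110 ratio values 7 changed sign, Abhd5 to G0s2 ranging from -0.40 to 0.087 and Pnpla2 to Pnpla3 from -0.15 to 0.19 (log2 difference) over single omissions; the cause was not tested. The other 8 members had an adjusted p of at least 0.276 under all 20 alternatives each. The spread of 4 libraries a group, more than depth, set the width of the intervals.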
